A study of Mus musculus with 18 samples.

Results

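The mRNA of the forelimb buds (FL) was compared with that of the neural tube (NT) of mouse embryos at E11.5, a mid-gestation stage. The comparison rests on 6 RNA-Seq libraries, FL replicates 1 to 3 and NT replicates 1 to 3, of the 18 RNA-Seq and Ribo-Seq libraries of the study, and on the 11231 genes that were measured in both tissues. The 3 replicates of each group are biological. Both tissues were microdissected from the same embryos, which were wild type and of the FVB/NJ strain, in medium with cycloheximide, a drug that halts ribosomes. The neural tube was freed from the somites along its length between the hindlimbs and the rhombomeres, so that NT holds spinal cord and caudal hindbrain, whereas FL holds every cell type of the bud. For some experiments neural tubes were frozen, and otherwise they were dissociated with papain. Whether any of the NT libraries came from frozen tissue is not given in the sources used here. Values are normalized reads, that is, reads on the coding sequence (CDS) of a gene divided by a size factor per library.

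The forelimb bud at this stage is a core of mesenchyme under a sheet of ectoderm, invaded by vessels, blood cells and muscle precursors. FGFs from the ectodermal ridge at its tip, Shh from its posterior margin and *Hox* genes of the A and D clusters are known to set its outgrowth and pattern. The neural tube holds dividing progenitors next to its lumen and newly born neurons that extend axons, and its positions along the body axis are likewise marked by *Hox* genes. Both tissues use the Shh, Wnt, BMP and Notch pathways, and the question asked here is which mRNAs differ in level between them.

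In FL, the 3 RNA-Seq libraries were alike, with Pearson's r over genes between 0.983 and 0.987 on the log2 scale. In NT, r was 0.970 between replicates 2 and 3, and 0.946 and 0.949 between each of them and replicate 1. Between tissues r lay between 0.808 and 0.834. The number of genes at least 2-fold away from the mean of the other 2 replicates was 873 in NT replicate 1, 411 and 489 in NT replicates 2 and 3, and between 60 and 124 in FL. NT replicate 1 therefore stood apart from all other RNA-Seq libraries, and results that rest on it are given with and without it below. Over 3092 genes with an annotated CDS, Spearman's rho of its difference from the other NT replicates with CDS length was -0.41, against 0.38 in NT replicate 2, 0.12 in NT replicate 3 and between -0.07 and 0.06 in FL. No pair of replicates agreed within sampling noise. Each RNA-Seq library held between 24555103 and 33061460 reads on these genes, and the lowest value of any gene in any of them was 4.6 normalized reads, so every gene of the table was detected in every one of these libraries.

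A gene was called higher in a tissue at an adjusted p under 0.05 (limma on log2(normalized reads + 1), Benjamini-Hochberg over 11231 genes) and at least 2-fold. By this rule 959 genes (8.54%) were higher in FL and 1143 genes (10.2%) were higher in NT. Together these 2102 genes are 18.7% of all genes, and the median log2 difference of all genes, FL minus NT, was 0.02. Most genes, 9053 or 80.6%, lay within 2-fold. The differences towards NT were the larger ones. At least 16-fold were 111 of the 1143 genes higher in NT (9.71%) and 33 of the 959 genes higher in FL (3.44%). At least 32-fold were 59 and 13 genes. The FL and NT values did not overlap in 953 of the genes higher in FL and 1139 of the genes higher in NT, and in 47.3% of all genes. Without the fold threshold, 34.3% of all genes passed the adjusted p. Without NT replicate 1, 1064 and 1226 genes were called, 880 and 1087 of them among those called with it, and no gene changed its direction. In dissected tissue a lower value can mean fewer cells of a type or less mRNA per cell, and the 2 cannot be told apart here.

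The deposited values carry UCSC identifiers. Symbols were at hand for 3280 of the 11231 genes (29.2%), for 271 of the genes higher in FL and 385 of those higher in NT, so that many well-known markers of both tissues are in the table without a name. Called were 20.0% of the genes with a symbol and 18.2% of those without. Of the 100 largest differences in each direction, 24 towards FL and 27 towards NT carry a symbol. The largest of all without one were uc009onl.2, with a log2 difference of -7.18 (SE 0.22), and uc008wck.1, with -7.13 (SE 0.39), towards NT. Towards FL they were uc009umk.2, with 6.50 (SE 0.55), and uc008lpz.1, with 6.05 (SE 0.29).

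Named genes were ranked by difference if called, without overlap between the tissues and with at least 100 normalized reads on average. The 15 with the largest differences towards NT include genes of growing axons and of radial glia. *Robo3* (uc012gqz.1, chromosome 9, 37415669 to 37433246), a receptor that commissural axons need to cross the midline, was at 364.6, 158.1 and 239.7 normalized reads in FL replicates 1, 2 and 3 and at 28072, 24388 and 49613 in NT replicates 1, 2 and 3. Its log2 difference, FL minus NT, of -7.07 (134.0-fold, SE 0.31, adjusted p = 7.2e-08 from limma) was the largest among the named genes. *Slit1* (uc008hmf.2, chromosome 19, 41600257 to 41743665), a ligand of Robo receptors, was at 185.0, 138.1 and 234.5 in FL and 7329, 6401 and 8470 in NT, a log2 difference of -5.33 (SE 0.21). Both are in the plot of the 30 genes with the largest differences, from which genes with overlapping values were left out.
The neurofilament subunits *Ina* and *Nefm* were among them. *Ina* (uc008huk.1, chromosome 19, 47014698 to 47025327) was at 282.1, 86.2 and 198.9 in FL and 16184, 13921 and 18090 in NT (log2 difference -6.55, SE 0.35). *Nefm* (uc007ulo.1, chromosome 14, 68082590 to 68124846) was at 281.3, 146.9 and 165.9 and 7188, 14867 and 11700 (log2 difference -5.82, SE 0.29). Neurofilaments fill the axons of differentiated neurons. *Fabp7* (uc007fct.1, chromosome 10, 57784881 to 57788450), a fatty acid binding protein of radial glia, was at 102.5, 24.8 and 57.3 in FL and 3054, 6069 and 4186 in NT (log2 difference -6.31, SE 0.44). *Gpr56*, an adhesion receptor of neural progenitors, was at 458.6, 401.6 and 387.3 and 17252, 12946 and 15734 (log2 difference -5.19, SE 0.15). The remaining genes of this group were *Rundc3a*, *Meis3*, *Wscd1*, *Akap6*, *Rhbdl3*, *Gng3*, *Gpm6a*, *Miat* and *Phf21b*, with log2 differences from -6.17 to -4.59. *Meis3* encodes a homeodomain partner of Hox proteins, *Gng3* a G protein γ subunit and *Gpm6a* a membrane glycoprotein of neurons, and *Miat* is a long noncoding RNA. Replicates could be very close, as for *Gng3* with 939.5, 939.0 and 936.0 normalized reads in NT, or apart, as for *Akap6*, whose NT replicate 1 had 3970 against 10389 and 8779 in replicates 2 and 3.

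**Figure D1:**
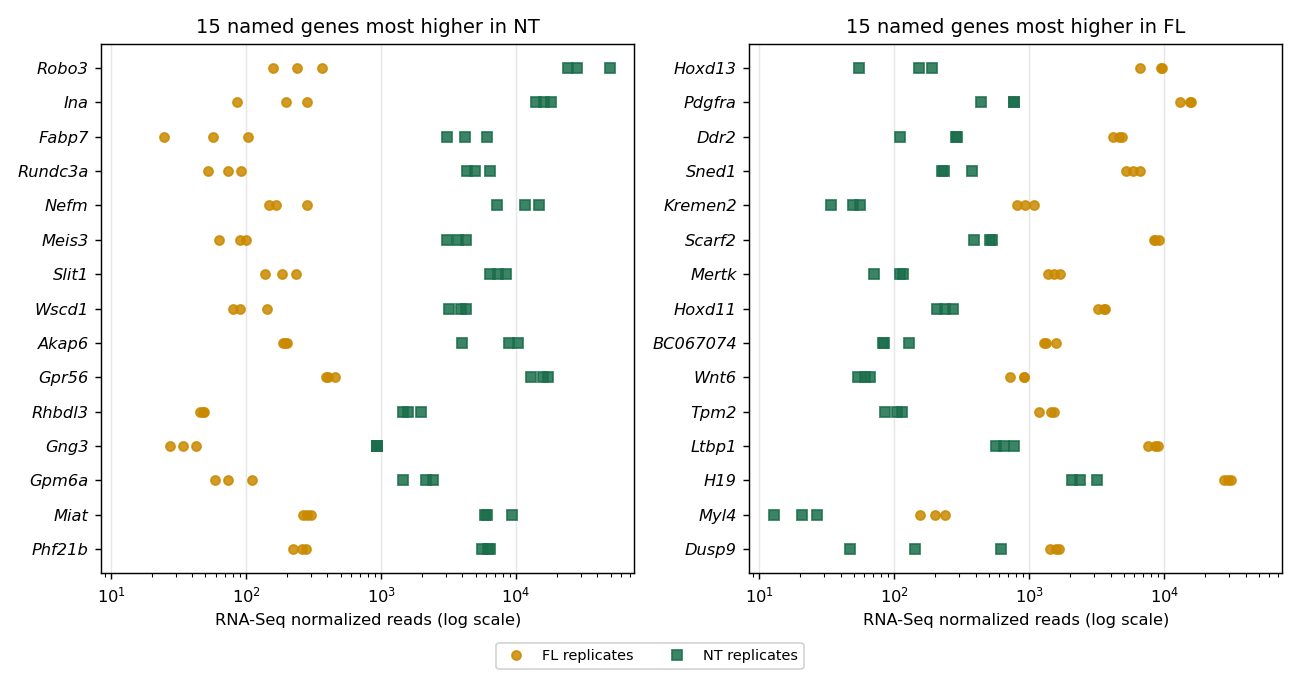
RNA-Seq normalized reads (log axis) of the 15 named genes with the largest difference towards NT (left) and towards FL (right). Each point is 1 library, circles for FL and squares for NT. The 30 genes were chosen among called genes whose 3 FL and 3 NT values do not overlap.

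The largest named difference towards FL was that of *Hoxd13* (uc008kdu.2, chromosome 2, 74668310 to 74671599), a gene of the 5′ end of the D cluster that digits need. It was at 9377, 9600 and 6659 normalized reads in FL replicates 1, 2 and 3 and at 54.6, 152.5 and 191.9 in NT replicates 1, 2 and 3. The log2 difference was 6.16 (71.4-fold, SE 0.39, adjusted p = 6.8e-07 from limma), and 5.61 without NT replicate 1, its lowest value. Next by size were a pair of receptors and a matrix protein. *Pdgfra* (uc008xue.1, chromosome 5, 75152292 to 75198215), a PDGF receptor of mesenchymal cells, was at 15675, 15433 and 13108 in FL and 438.4, 773.7 and 773.0 in NT (log2 difference 4.52, SE 0.21). *Ddr2* (uc011wvr.1, chromosome 1, 169972307 to 170110762), a receptor for fibrillar collagen, was at 4631, 4886 and 4183 and 110.6, 289.6 and 288.5 (log2 difference 4.43, SE 0.32). *Sned1*, a matrix protein, was at 5887, 6565 and 5196 and 377.1, 232.2 and 225.5 (log2 difference 4.43, SE 0.21). In this group lack of overlap between FL and NT was a condition of the choice.
*Kremen2* (uc008atd.1, chromosome 17, 23741197 to 23745833), whose product binds the Wnt inhibitors of the Dickkopf family, was at 1087, 815.1 and 924.1 in FL and 34.0, 49.7 and 55.7 in NT (log2 difference 4.33, SE 0.27). *Wnt6*, a Wnt ligand of the limb ectoderm, was at 918.8, 722.5 and 918.0 and 66.6, 54.0 and 60.4 (log2 difference 3.80, SE 0.24). Other members were the scavenger receptor gene *Scarf2* (4.20), the receptor tyrosine kinase gene *Mertk* (3.96), *Hoxd11* (3.86), *BC067074* (3.85), the tropomyosin gene *Tpm2* (3.76) and *Ltbp1* (3.66), whose product holds latent TGF-β in the matrix. *H19*, an imprinted noncoding RNA, was at 29865, 30946 and 27586 in FL and 2367, 2058 and 3157 in NT (log2 difference 3.56, SE 0.16). Values are reads on a CDS, and which stretch of the noncoding *H19* and *Miat* was counted is not given in the sources used here. The group closed with *Myl4*, a myosin light chain of embryonic muscle, at 201.2, 238.7 and 154.6 and 26.6, 12.8 and 20.8 (log2 difference 3.27), and with *Dusp9*, a phosphatase of ERK, at 1428, 1651 and 1582 and 614.4, 141.4 and 47.0. The log2 difference of *Dusp9* was 3.27 (SE 0.69) and was 4.23 without NT replicate 1, in which it was highest in NT.

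The *Hox* genes, which encode the transcription factors that mark position along the body and limb axes, split by their place in the cluster. Of 16 *Hox* genes of the 4 clusters and the neighbouring *Evx2*, 17 genes in all, 11 were higher in NT, 4 were higher in FL and 2 were not called. The share called was 88.2%, against 18.7% of all genes, and the median log2 difference was -2.65, against 0.02. Higher in NT were the genes numbered 2 to 6 that could be named, *Hoxa2*, *Hoxa3*, *Hoxa5*, *Hoxa6*, *Hoxb2*, *Hoxb3*, *Hoxb4*, *Hoxc4*, *Hoxc6*, *Hoxd3* and *Hoxd4*. *Hoxb3* was at 181.9, 181.2 and 203.2 in FL and 4786, 4083 and 4651 in NT (log2 difference -4.57, SE 0.16). The smallest difference of these 11 was that of *Hoxa3*, at 353.0, 410.3 and 472.4 and 1689, 1606 and 1979 (log2 difference -2.09, SE 0.18). FL and NT values did not overlap in any of the 11 genes. That held for 1139 of the 1143 genes higher in NT and for 47.3% of all genes.
Within the D cluster, on the plus strand of chromosome 2 of GRCm38, the genes run from *Hoxd3*, at the highest coordinates, to *Hoxd13*, at the lowest, and the difference turned from NT to FL in that order. *Hoxd3* (74711927 to 74748442) was at 164.2, 130.1 and 172.0 in FL and 3177, 2953 and 3800 in NT (log2 difference -4.41, SE 0.19), and *Hoxd4* (74711929 to 74729160) at 427.8, 407.1 and 428.2 and 2829, 2498 and 3108 (-2.73, SE 0.15). *Hoxd8* (74704615 to 74707933), between them and the limb genes, was at 505.6, 384.8 and 305.7 in FL and 398.5, 380.4 and 425.4 in NT. Its values overlapped, with a log2 difference of -0.04 (SE 0.23, adjusted p = 0.92 from limma). *Hoxd10* (74691924 to 74695105) was at 1670, 1709 and 2033 in FL and 259.9, 360.7 and 526.1 in NT (2.29, SE 0.24), and *Hoxd11* (74679557 to 74687016) at 3612, 3573 and 3215 and 273.2, 205.6 and 238.9 (3.86, SE 0.17). From *Hoxd3* to *Hoxd13* (74668310 to 74671599), each of the 6 genes with a symbol had a larger log2 difference than the one before it, by more than the sum of the SEs of the pair. The annotated spans of *Hoxd3* and *Hoxd4* overlap, and their values are uncertain to that extent. *Evx2* (74652991 to 74659557), the homeobox gene beyond *Hoxd13*, was at 996.6, 1122 and 905.8 in FL and 232.6, 265.6 and 229.5 in NT (2.05, SE 0.19). *Hoxa9*, the only gene of the A cluster above number 6 with a symbol, was at 1264, 1308 and 1372 and 1309, 1009 and 1364 and was not called (0.11, adjusted p = 0.65 from limma).

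**Figure D2:**
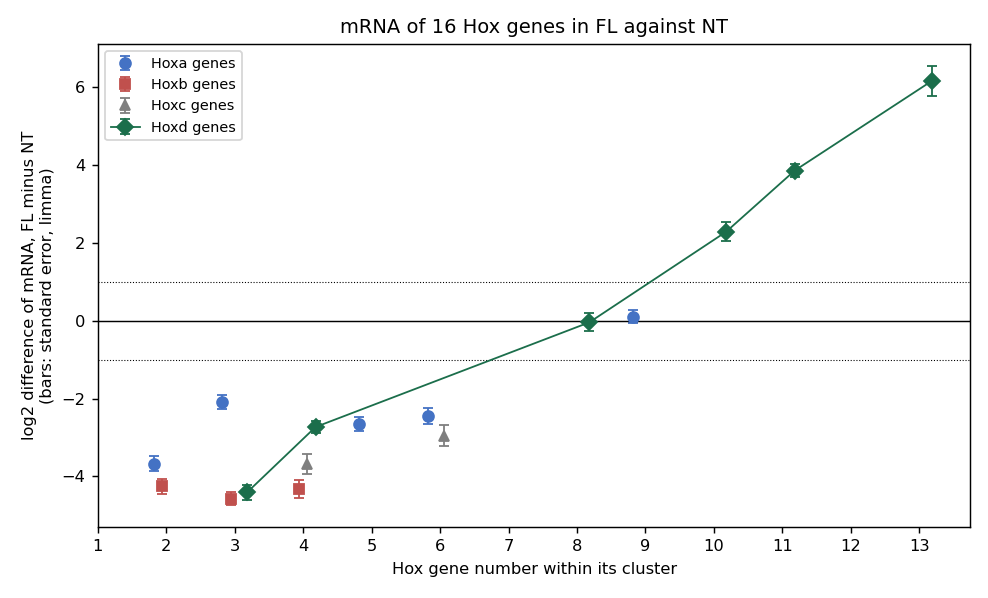
Log2 difference of mRNA, FL minus NT, of 16 *Hox* genes by their number in the cluster, with standard errors from limma and dotted lines at 2-fold. The genes of the D cluster, joined by a line, run from -4.41 at *Hoxd3* through -0.04 at *Hoxd8* to 6.16 at *Hoxd13*.

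Of 15 genes known from limb bud patterning, 7 were higher in FL, 2 were higher in NT and 6 were not called. Called were 60.0%, against 18.7% of all genes, and the median was 0.84. *Ror2* (uc007qnj.1, chromosome 13, 53109312 to 53286124), a receptor of Wnt5a, was at 2801, 2831 and 2790 in FL and 439.8, 294.7 and 297.2 in NT (log2 difference 3.05, SE 0.19). *Snai1*, a zinc finger repressor of mesenchymal cells, was at 1347, 1193 and 1252 and 195.2, 163.6 and 118.8 (3.01, SE 0.22). *Msx1* (uc008xfw.1, chromosome 5, 37820485 to 37824583), a homeobox target of BMP, was at 3815, 3929 and 3350 and 1161, 668.3 and 633.4 (2.22, SE 0.22). None of these 3 genes had overlapping values, as was so for 953 of the 959 genes higher in FL. The others higher in FL besides *Wnt6* were *Pkdcc*, a secreted kinase of the growing skeleton (at 3643, 4687 and 5344 in FL and 1513, 1640 and 1616 in NT), *Fgf18*, an FGF ligand (1.41, SE 0.41), and *Pth1r*, the receptor of parathyroid hormone (1.10, SE 0.14). *Fgf18* was not called without any 1 of FL replicate 1, 2 or 3 or NT replicate 3 (0.89 to 1.48).
Higher in NT were *Zbtb16*, at 225.8, 239.5 and 255.3 in FL and 634.3, 675.1 and 548.2 in NT (-1.36, SE 0.20), and the ligand *Wnt3*, at 164.9, 166.8 and 185.0 and 481.8, 424.1 and 380.5 (-1.31, SE 0.22). *Zbtb16* encodes a zinc finger repressor that proximal limb structures need. *Lhx2* and *Gli3*, both transcription factors of limb outgrowth, lay above NT by less than 2-fold, at 0.46 (SE 0.15, adjusted p = 0.037) and 0.84 (SE 0.14, adjusted p = 0.00092 from limma). *Jag2*, *Mycn* and *Tcf7* had log2 differences between -0.17 and 0.42, and the values of FL and NT overlapped in each of them.

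The feedback inhibitors and targets of FGF signalling were higher in FL where they were called, and the count turned on single libraries. Of 8 genes, 5 were called higher in FL and none in NT (62.5%, against 18.7% of all genes, median 1.72). There were 6 called without NT replicate 1 (median 2.05), 2 without NT replicate 2, and 3 without any 1 of the other 4 libraries. *Dusp6* (uc007gxk.2, chromosome 10, 99263231 to 99267489), an ERK phosphatase induced by FGF, was at 3826, 3833 and 3478 in FL and 1569, 822.5 and 738.1 in NT (log2 difference 1.91, SE 0.25). *Spry1*, an inhibitor of receptor tyrosine kinase signalling, was at 867.9, 716.9 and 689.6 and 334.5, 184.2 and 232.8 (1.63, SE 0.25), and its relative *Spry2* at 1379, 1255 and 1347 and 1026, 395.8 and 498.6 (1.17, SE 0.30). In these 3 genes NT replicate 1 was the highest NT library and still lay below every FL library. *Spry2* was not called without NT replicate 2 (0.89).
In *Etv4* and *Etv5*, ETS factors downstream of FGF, and in *Spry4* it reached the FL values. *Etv4* was at 1192, 1083 and 1157 in FL, 1209 in NT replicate 1, and 163.6 and 169.8 in NT replicates 2 and 3. Its log2 difference was 1.82 (SE 0.61, adjusted p = 0.042 from limma) and 2.77 without NT replicate 1. *Etv5* was at 1686, 1474 and 1621 in FL and 1527, 257.0 and 216.1 in NT, with 1.85 (SE 0.58, adjusted p = 0.031 from limma) and 2.75 without that library. Neither was called by edgeR or DESeq2 on the recovered reads. *Etv4* was not called without any 1 of FL replicate 1, 2 or 3 or NT replicate 2 or 3 (1.33 to 1.86). *Etv5* was not called without any 1 of FL replicate 1, 2 or 3 or NT replicate 2 or 3 (1.34 to 1.91). *Spry4* was at 525.7, 515.7 and 634.9 in FL and 804.2, 97.7 and 45.6 in NT, with 1.85 (SE 0.79, adjusted p = 0.1 from limma), and was called without it, at 3.04 (adjusted p = 1.1e-05). *Spred1* and *Spred2*, further inhibitors of the pathway, were not called (0.30 and 0.40).

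NT replicate 1 was also the highest RNA-Seq library of either tissue for several genes outside the FGF pathway, which are named here after their values were seen. *Klf4*, a zinc finger factor, was at 1028 normalized reads in NT replicate 1, 107.1 and 104.0 in NT replicates 2 and 3, and 139.5, 159.7 and 277.0 in FL. *Klf5* was at 976.8, 121.7 and 69.1 in NT replicates 1, 2 and 3 and 131.8, 123.7 and 192.8 in FL, and the cell cycle factor *Mybl2* at 5829, 1249 and 968.9 and 1683, 1413 and 1794. The metallothionein gene *Mt2* was at 691.0, 55.7 and 65.8 in NT and 43.9, 39.1 and 205.8 in FL. None of these 4 genes was called. It was the lowest NT library for genes such as *Chl1* (1319, 4373 and 4384 in NT), *Dcx* (2675, 7953 and 6797), *Gria2* (600.4, 2785 and 2843) and *Vcan* (2709, 12746 and 11396). What sets this library apart was not tested.

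**Figure D3:**
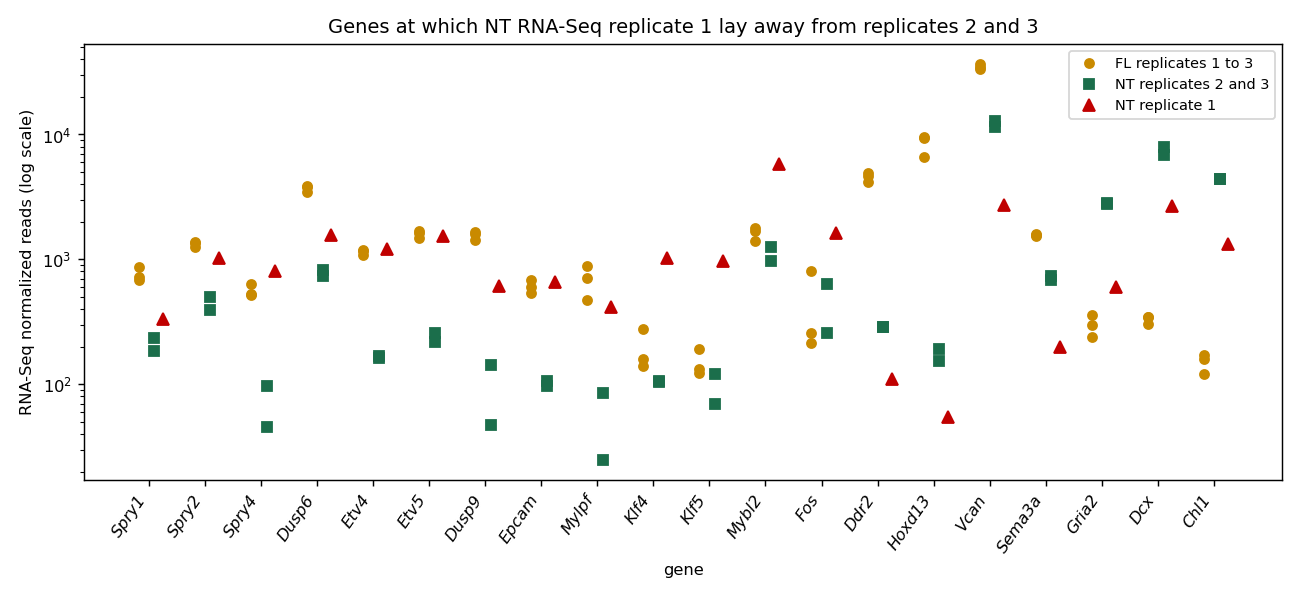
RNA-Seq normalized reads (log axis) of 20 genes in FL replicates 1 to 3 (circles), NT replicates 2 and 3 (squares) and NT replicate 1 (triangles). From *Spry1* to *Fos* the triangle lies above both squares, and from *Ddr2* to *Chl1* below both.

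In the Shh pathway and the cilium in which it acts, most genes differed by less than 2-fold. Of 17 measured, 4 were higher in FL, 1 was higher in NT and 12 were not called. Called were 29.4%, against 18.7% of all genes, and the median was 0.45. *Gli1* (uc007hjf.1, chromosome 10, 127329882 to 127341974), a transcription factor that Shh signalling itself induces, was at 2771, 2557 and 2861 in FL and 745.0, 494.4 and 471.7 in NT (log2 difference 2.29, SE 0.19). *Smo* (uc009bef.2, chromosome 6, 29735503 to 29761365), the membrane protein that passes the signal on, was at 8900, 9311 and 8596 and 4849, 3602 and 4260 (1.09, SE 0.14). *Evc* and *Evc2*, which act with Smo at the base of the cilium, were at 1.34 (SE 0.17) and 1.26 (SE 0.17). In all 4 genes every FL library lay above every NT library, as in 953 of the 959 genes higher in FL. *Smo* was not called without NT replicate 2 (0.97).
The receptor *Ptch1* (uc007qxv.1, chromosome 13, 63508328 to 63573598), another gene that Shh induces, was not called. It was at 4089, 4338 and 4375 in FL and 5277, 6045 and 4510 in NT, with a log2 difference of -0.30 (SE 0.14, adjusted p = 0.13 from limma). *Stk36*, a kinase related to the pathway, was higher in NT at -1.03 (SE 0.15). *Stk36* was not called without FL replicate 1 or NT replicate 1 (-0.97 and -0.94). *Gpr161*, a ciliary receptor that restrains the pathway, was at -0.62 (SE 0.17), *Kif7* at 0.60 (SE 0.16) and *Ift172*, a subunit of ciliary transport, at 0.62 (SE 0.14), each with less than 2-fold between tissues.

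Of 23 genes of the Wnt pathway measured, 8 were higher in FL, 4 were higher in NT and 11 were not called. Called were 52.2%, against 18.7% of all genes, and the median was 0.38. Higher in FL besides *Wnt6*, *Ror2* and *Kremen2* were *Ror1*, at 593.5, 638.7 and 830.3 in FL and 103.3, 64.3 and 130.2 in NT (log2 difference 2.82, SE 0.29), and *Ptk7*, at 14872, 14499 and 13106 and 6237, 4820 and 5463 (1.37, SE 0.14). Ror1, Ror2 and Ptk7 belong to a branch of Wnt signalling that orients cells rather than stabilizing β-catenin. *Tle2*, a co-repressor, was at 1138, 1091 and 1007 in FL and 214.6, 235.6 and 269.7 in NT (2.17, SE 0.18). *Dact3*, an inhibitor that binds Dishevelled, was at 1.07 (SE 0.15), and *Notum*, an enzyme that inactivates Wnt ligands, at 1.46 (SE 0.47, adjusted p = 0.036 from limma). *Dact3* was not called without NT replicate 2 (0.92). *Notum* was not called without any 1 of FL replicate 1, 2 or 3 or NT replicate 2 or 3 (0.93 to 1.55). By edgeR *Notum* was not called.
On the NT side *Apc2* (uc007gcp.1, chromosome 10, 80295977 to 80318263), the neuronal relative of *Apc*, stood out. It was at 1298, 1137 and 1043 in FL and 24178, 18496 and 28260 in NT (log2 difference -4.33, SE 0.17). *Apc* itself, part of the complex that degrades β-catenin, was at 4937, 4975 and 4786 in FL and 4009, 11672 and 10170 in NT. It was not called (-0.67, SE 0.32, adjusted p = 0.14 from limma) and was called higher in NT without NT replicate 1 (-1.15, adjusted p = 2.9e-06). The kinase *Nlk* was at 683.7, 687.4 and 842.4 in FL and 1520, 1774 and 1811 in NT (-1.21, SE 0.16). *Daam1*, a formin of cell polarity, reached the threshold narrowly, at 1164, 1162 and 1162 in FL and 1508, 2939 and 2854 in NT (SE 0.23), and its paralogue *Daam2* was not called (0.44). *Dvl1* was at -0.90 (SE 0.15), under 2-fold. *Daam1* was not called without NT replicate 2 or 3 (-0.83 and -0.86). *Dvl1* was called without NT replicate 2 (-1.02).

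In the BMP and TGF-β pathway, 5 of 11 genes were higher in FL, 3 were higher in NT and 3 were not called. Called were 72.7%, against 18.7% of all genes, and the median was 0.75. The FL side held genes that BMP is known to induce. *Id1* (uc008ngf.2, chromosome 2, 152736251 to 152737410) was at 3287, 3507 and 3041 in FL and 1394, 883.3 and 876.3 in NT (log2 difference 1.67, SE 0.19). *Id3* was at 1.09 (SE 0.18), the inhibitory Smad gene *Smad6* at 1.59 (SE 0.24), and *Msx1* at 2.22. *Bmper*, a secreted BMP modulator, was at 643.6, 572.4 and 455.1 in FL and 235.9, 337.6 and 128.8 in NT (1.34, SE 0.33). The second inhibitory Smad gene, *Smad7*, was not called (0.75, SE 0.25) and passed the threshold without NT replicate 1 (1.04). On the NT side were *Rgmb*, a BMP co-receptor known from growing axons, at 1343, 1257 and 1435 in FL and 7848, 8663 and 9347 in NT (-2.68, SE 0.13), the TGF-β inhibitor *Pmepa1* (-1.31, SE 0.25) and the activin receptor gene *Acvr2b* (-1.13, SE 0.14). *Id3* was not called without NT replicate 3 (0.92). *Bmper* was not called without FL replicate 1 or NT replicate 3 (1.23 and 0.96). Without NT replicate 3 the count in FL was 3.

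Of 8 genes of the Notch pathway, 4 were higher in NT and none in FL (50.0% called, against 18.7% of all genes, median -0.81). *Nrarp* (uc008iqk.1, chromosome 2, 25180758 to 25183339), a feedback inhibitor that Notch induces, was at 211.2, 174.0 and 185.8 in FL and 1851, 1273 and 1573 in NT (log2 difference -3.02, SE 0.20). *Mfng*, a sugar transferase that modifies Notch receptors, was at 251.3, 210.0 and 127.7 and 1609, 1052 and 1841 (-2.94, SE 0.29). *Hes6* was at -1.80 (SE 0.19) and the co-activator *Maml3* at -1.12 (SE 0.15). In these 4 genes the 3 NT libraries lay above the 3 FL libraries, as in 1139 of the 1143 genes higher in NT. *Hes1*, the classical target, was at 1324, 1142 and 1319 in FL and 2046, 1337 and 1282 in NT, with overlapping values and a log2 difference of -0.27 (SE 0.19, adjusted p = 0.32 from limma).

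The markers of neural progenitors and neurons separated the tissues as labelled. Of 24 measured, 23 were higher in NT and none in FL (95.8% called, against 18.7% of all genes, median -3.21). *Dmrta2* alone was not called (0.40, SE 0.38). Summed over the 24 genes, FL libraries held between 27017 and 31016 normalized reads and NT libraries between 165866 and 223353. *Ina*, *Fabp7* and *Nefm*, described above, belong to this list. *Tubb2b*, a tubulin of young neurons, was at 158.0, 170.0 and 152.0 in FL and 4707, 2412 and 2936 in NT (log2 difference -4.32, SE 0.24). *Dcx* (uc033juo.1, chromosome X, 143855842 to 143933311), the doublecortin of migrating neurons, was at 345.3, 301.0 and 343.1 in FL (-3.99, SE 0.34), and at -4.48 without NT replicate 1, in which it was lowest. The kinesin genes *Kif5a* and *Kif1a*, motors of axonal transport, were at -3.51 (SE 0.26) and -3.27 (SE 0.12). *Map1b*, a microtubule protein of axons, was at 5651, 5574 and 5788 in FL and 34055, 66457 and 57510 in NT (-3.16, SE 0.22). Genes of progenitors were higher in NT as well. *Nes*, the intermediate filament nestin, was at 5008, 5266 and 4325 in FL and 14760, 20332 and 22760 in NT (-1.97, SE 0.17), and *Ptprz1*, a phosphatase of radial glia, at 182.7, 199.6 and 204.1 and 1283, 4565 and 2960 (-3.72, SE 0.37). The smallest called difference in the list was that of *Stmn1*, a tubulin-binding protein, at -1.36 (SE 0.16).

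In the axon guidance list, 13 of 22 genes were higher in NT, 1 was higher in FL and 8 were not called. Called were 63.6%, against 18.7% of all genes, and the median was -1.34. *Robo3* and *Slit1*, described above, had the largest differences of the list. *Dcc* (uc008fop.1), the netrin receptor, was at 538.0, 369.6 and 385.6 in FL and 4700, 9350 and 9537 in NT (log2 difference -4.14, SE 0.27). *Chl1* (uc009dcj.1, chromosome 6, 103510586 to 103750211), an adhesion molecule of the L1 family, was at 172.7, 159.7 and 121.6 in FL (-4.28, SE 0.40). *Celsr2*, an atypical cadherin, was at 1888, 1515 and 1701 and 39524, 29641 and 35893 (-4.36, SE 0.15). *Srgap3*, which acts downstream of Robo receptors, was at -3.46 (SE 0.17). The semaphorin genes fell on both sides. *Sema6b*, *Sema6c* and *Sema6d* were higher in NT, at -1.45, -1.23 and -1.98. *Sema3a* (uc008wmb.3, chromosome 5, 13125414 to 13602565), a secreted repellent of axons, was the only member higher in FL. It was at 1596, 1530 and 1581 in FL and 199.9, 732.5 and 689.8 in NT (1.75, SE 0.41, adjusted p = 0.007 from limma), and at 1.14 without NT replicate 1, its lowest value. Of the plexin genes, the semaphorin receptors, *Plxna3* was called (-1.11, SE 0.16) and *Plxnb1* (-0.93) and *Plxna4* (-0.60) lay under 2-fold. *Plxna3* was not called without NT replicate 3 (-0.96). *Plxnb1* was called without NT replicate 2 (-1.06).

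Among synaptic and channel genes, 29 of 53 were higher in NT, 3 were higher in FL and 21 were not called. Called were 60.4%, against 18.7% of all genes, and the median was -1.17. Of the genes of the postsynaptic scaffold, *Shank1* was higher in NT, at 712.2, 657.8 and 490.7 in FL and 4436, 3704 and 6019 in NT (log2 difference -2.91, SE 0.21), as was *Shank2* (-2.61, SE 0.26), whereas *Dlg4* was not called (-0.73, SE 0.13). *Lrrc4b*, an adhesion molecule of synapses, was at 507.9, 510.1 and 455.9 and 7991, 6304 and 7079 (-3.85, SE 0.14), the largest difference in the list. Among receptors, the AMPA receptor gene *Gria2* was at 237.4, 297.0 and 358.7 in FL (-2.51, SE 0.50) and at -3.26 without NT replicate 1, and the GABA receptor gene *Gabbr1* at -1.42 (SE 0.13). Among channel genes, *Hcn3* was higher in NT (-3.57, SE 0.22). Calcium channel genes stood on both sides. *Cacna1a*, the P/Q-type subunit of neurons, was at 396.2, 443.9 and 405.6 in FL and 2341, 2355 and 3232 in NT (-2.65, SE 0.17). *Cacna1c* (uc009dlv.3, chromosome 6, 118587240 to 119196418), the L-type subunit known from heart and muscle, was at 4299, 3950 and 4354 and 467.8, 934.7 and 666.3 (2.66, SE 0.22). The T-type subunit *Cacna1g* (1.40, SE 0.12) and the inward rectifier *Kcnj2* (3.16, SE 0.37), at 514.1, 423.9 and 505.4 in FL and 31.3, 92.5 and 50.3 in NT, were the other members higher in FL.

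The extracellular matrix held the largest share of genes higher in FL among the lists with at least 10 members. Of 30 measured, 19 were higher in FL, 2 were higher in NT and 9 were not called. Called were 70.0%, against 18.7% of all genes, and the median was 1.52. Without NT replicate 1 the count in FL was 17 and the median 1.20. The summed level of the list was between 94632 and 111006 in FL, 23269 in NT replicate 1, and 35618 and 34726 in NT replicates 2 and 3, and the part of that library in the result was not tested further. Structural proteins were among them. *Col27a1* was at 4010, 4440 and 3604 in FL and 459.8, 455.8 and 479.8 in NT (log2 difference 3.10, SE 0.15), *Col6a3* at 6088, 6655 and 4735 and 1199, 1127 and 1217 (2.29, SE 0.15), and *Lum*, which binds collagen fibrils, at 1633, 1680 and 1456 and 253.2, 409.5 and 234.2 (2.45, SE 0.23). In these 3 genes NT replicate 1 lay within the range of the other NT replicates. *Lox* (uc008exe.2), which encodes the enzyme that cross-links collagen, was at 343.0, 377.6 and 331.8 in FL and 34.0, 44.5 and 30.2 in NT (3.26, SE 0.29). *Vcan* (uc007rjg.1, chromosome 13, 89655312 to 89742509), the proteoglycan versican, was at 36821, 34870 and 33727 in FL (2.26, SE 0.46) and at 1.54 without NT replicate 1. *Hmcn1* was at 9940, 10868 and 9042 and 811.6, 1468 and 1909 (2.91, SE 0.26).
Of the proteases of the ADAMTS family, which cut proteoglycans and procollagens, *Adamts5*, *Adamts6*, *Adamts9*, *Adamts10* and *Adamts19* were higher in FL, with log2 differences from 1.12 to 2.77. *Adamts20* was higher in NT, at 363.0, 391.2 and 412.5 in FL and 766.3, 1013 and 928.7 in NT (-1.20, SE 0.18). *Adamts2* and *Adamts3* were not called (0.80 and 0.51). *Adamts6* and the laminin gene *Lama2* passed 2-fold narrowly, at 1.12 and 1.05. *Adamts6* was not called without NT replicate 1 (0.76). *Lama2* was not called without FL replicate 2 or NT replicate 1 (0.96 and 0.81). The second gene higher in NT was *Edil3*, an integrin ligand (-2.55, SE 0.30).

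Receptor tyrosine kinases, the receptors of many growth factors, were divided between the tissues. Of 31 measured, 14 were higher in FL, 7 were higher in NT and 10 were not called. Called were 67.7%, against 18.7% of all genes, and the median was 0.57. Close relatives stood on opposite sides. Of the 2 collagen receptors, *Ddr2* was higher in FL, and *Ddr1* was higher in NT, at 2197, 2340 and 2265 in FL and 16652, 13273 and 15228 in NT (log2 difference -2.72, SE 0.13). Of the FGF receptors, *Fgfr1* (uc009lfy.2, chromosome 8, 25513654 to 25575718) was at 11349, 11395 and 10869 in FL and 4702, 3897 and 4282 in NT (1.39, SE 0.12), and *Fgfr4* at 1.91 (SE 0.29). *Fgfr3* (uc008xbf.3, chromosome 5, 33721674 to 33737068) was at 1949, 1906 and 1527 in FL and 6551, 6226 and 5744 in NT (-1.79, SE 0.14), and *Fgfr2* was not called (0.30, SE 0.17, adjusted p = 0.2 from limma). Thus 2 of the 4 FGF receptor genes were higher in FL and 1 in NT.
Of the Eph receptors, which guide cells by contact with ephrins, *Ephb3* and *Ephb4* were higher in FL, at 1.56 (SE 0.15) and 2.60 (SE 0.14), whereas *Ephb1*, *Ephb2* and *Epha5* were higher in NT, at -2.76 (SE 0.20), -1.33 (SE 0.12) and -2.66 (SE 0.40). *Epha4*, *Epha7* and *Ephb6* were not called (0.87, 0.56 and 0.34). *Epha4* was called without NT replicate 2 (1.07) and was at 0.59 without NT replicate 1. *Epha3* was not called with all libraries, at 2176, 2124 and 1738 in FL and 1863, 4737 and 4317 in NT (-0.75, SE 0.30), and was called higher in NT without NT replicate 1 (-1.17, adjusted p = 1.9e-05 from limma). *Epha2* was at 605.8, 445.5 and 663.5 in FL and 2866, 544.0 and 573.0 in NT (-0.77, SE 0.52) and at 0.01 without NT replicate 1, called in neither case. Receptors of neuregulins, *Erbb2* and *Erbb3*, were higher in FL, with *Erbb3* at 1856, 1815 and 1838 in FL and 634.3, 392.4 and 362.3 in NT (2.03, SE 0.22). *Pdgfrb* (2.06, SE 0.14), *Met*, the receptor that muscle precursors need to enter the limb (1.58, SE 0.23), and *Axl* (1.42, SE 0.16) were higher in FL too. The neurotrophin receptor *Ntrk2* was at 306.0, 340.1 and 321.3 in FL and 2805, 2669 and 2530 in NT (-3.04, SE 0.15), the largest difference towards NT in this list. *Kit*, the receptor of stem cell factor, was higher in NT as well (-1.31, SE 0.15).

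**Figure D4:**
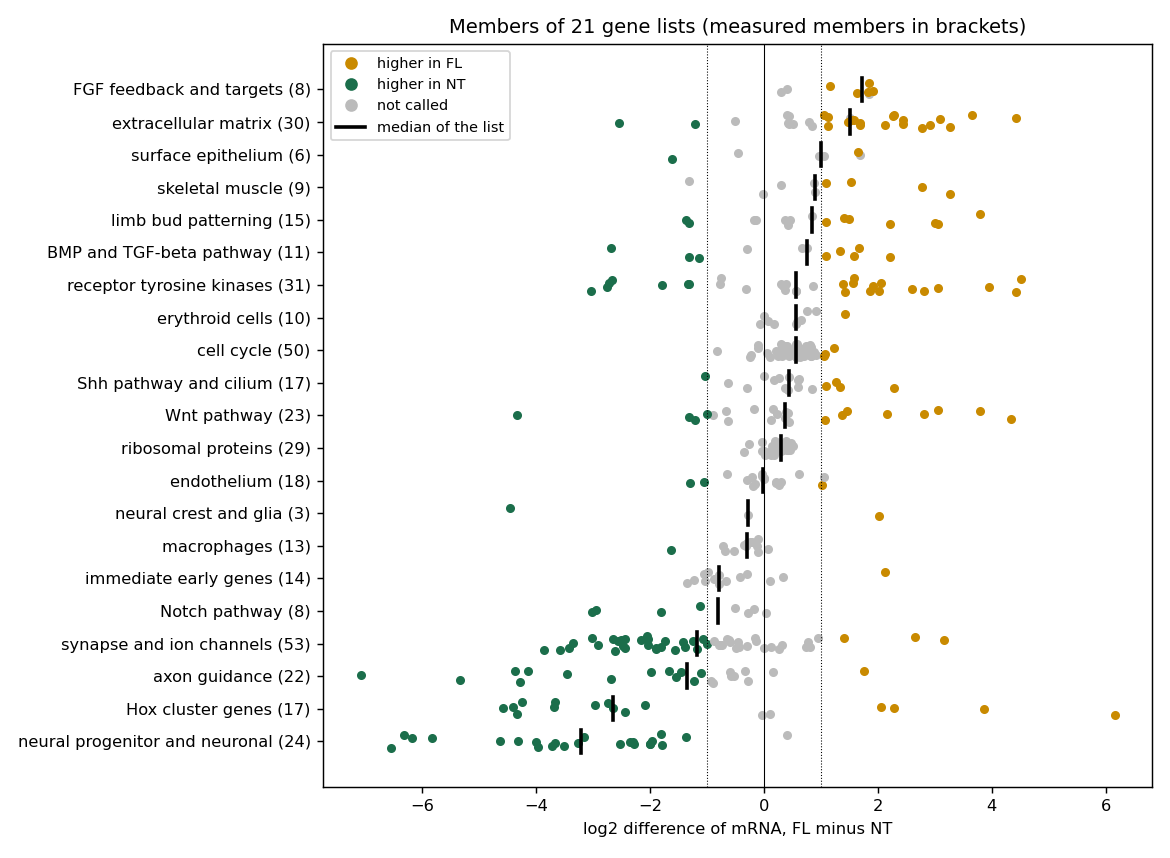
Log2 difference of mRNA, FL minus NT, of each measured member of the 21 gene lists (points, coloured by call, with small vertical shifts for legibility), with the median of each list as a bar and dotted lines at 2-fold. Medians run from -3.21 for neural progenitor and neuronal genes to 1.72 for FGF feedback and targets, and the 29 ribosomal protein genes hold no called member.

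Markers of other cell types that the dissected pieces could hold were measured in both tissues. None of them was at 0 in any RNA-Seq library, but this held for every gene of the table. Listed markers without values were left out, so that 9 of 14 muscle genes and 13 of 22 macrophage genes were measured. Of 9 skeletal muscle genes, 4 were higher in FL and none in NT (44.4% called, against 18.7% of all genes, median 0.89). Their summed level lay between 6494 and 7888 normalized reads in FL and between 3549 and 5302 in NT. *Mylpf*, a light chain of fast muscle, was at 881.8, 707.3 and 472.4 in FL and 411.8, 85.7 and 24.8 in NT, with a log2 difference of 2.77 (SE 0.77, adjusted p = 0.017 from limma). It was at 3.82 without NT replicate 1. *Mylpf* was not called without FL replicate 1 (2.57). By edgeR and DESeq2 on the recovered reads *Mylpf* was not called either. *Ryr1*, the calcium release channel of muscle, was at 3323, 3234 and 2679 and 864.9, 1059 and 1308 (1.53, SE 0.18), and the RNA-binding *Rbm24* at 1.10 (SE 0.25). *Rbm24* was not called without NT replicate 2 (0.98). *Myf5* and *Myh3* were not analysed here. Without NT replicate 1, 1 of the 9 genes was higher in NT.
Erythroid genes overlapped between the tissues in summed level. Most of that level came from *Hba-x*, at 13021, 15434 and 23440 in FL and 18979, 15874 and 10789 in NT. By gene, 9 of 10 had a positive log2 difference (median 0.57, against 0.02 over all genes). Of 10 erythroid genes, 1 was higher in FL and none in NT (10.0% called, against 18.7% of all genes). Their summed level lay between 15249 and 25891 in FL and between 12236 and 20859 in NT. *Gypc*, a glycophorin, was the gene called (1.42, SE 0.31), and 2 were called without NT replicate 2. Of 13 macrophage genes, 1 was called (7.69%, against 18.7% of all genes), the signalling adaptor *Tyrobp*. It was higher in NT, at 24.7, 41.5 and 30.4 in FL and 99.3, 81.4 and 120.8 in NT (-1.63, SE 0.38). The summed level of the 13 genes was between 1344 and 1602 in FL and between 1605 and 2525 in NT, with NT replicate 1 highest.
Endothelial genes overlapped likewise, between 7711 and 10099 in FL and between 9067 and 9271 in NT. Of 18, 1 was higher in FL (*Arap3*, 1.03, SE 0.17) and 2 were higher in NT (*Apold1*, -1.30, and *Cldn5*, -1.05), 16.7% together against 18.7% of all genes. *Cldn5*, the tight junction protein of brain vessels, was at 283.6, 310.6 and 239.7 in FL and 642.3, 433.5 and 673.7 in NT (SE 0.23), and each of the 3 calls was lost without some library. *Arap3* was not called without any 1 of FL replicate 1 or NT replicate 2 or 3 (0.95 to 0.99). *Apold1* was not called without any 1 of FL replicate 1 or 2 or NT replicate 1 or 2 (-0.90 to -1.35). *Cldn5* was not called without any 1 of FL replicate 3 or NT replicate 1 or 3 (-0.93 to -0.96). The count of the surface epithelium list depended on NT replicate 1. Its summed level was between 1302 and 1468 in FL, 2291 in NT replicate 1, and 502 and 507 in NT replicates 2 and 3. *Epcam*, the adhesion molecule of epithelia, was at 604.3, 537.3 and 689.6 in FL and 659.0, 96.0 and 106.7 in NT. It was not called (1.68, SE 0.60, adjusted p = 0.051 from limma) and was called higher in FL without NT replicate 1 (2.57, adjusted p = 2.5e-06). Of the 6 genes, 1 was higher in each direction with all libraries (33.3% called, against 18.7% of all genes). With NT replicate 1 left out, 3 were higher in FL and none in NT. Without FL replicate 1 or 2, 0 genes of that list were called in either direction. Of 3 measured genes of neural crest and glia, *Ednrb* was higher in NT, at 64.8, 162.1 and 164.1 in FL and 1854, 3512 and 2903 in NT (-4.46, SE 0.36), and *Erbb3* was higher in FL. *Ednrb* is also expressed by progenitors of the neural tube.

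Of 50 cell cycle genes, 3 were called, all higher in FL (6.0%, against 18.7% of all genes). At an unadjusted p under 0.05 from limma there were 33 of them, and 45 of the 50 had a positive log2 difference. The share of all genes at either mark is not given here. The median was 0.56, against 0.02 over all genes. The genes called were *Pole*, a subunit of DNA polymerase ε (1.24, SE 0.12), *Cenpe*, a kinesin of the kinetochore (1.08, SE 0.30), and *Tyms*, which makes thymidylate (1.06, SE 0.23). *Cenpe* was not called without any 1 of FL replicate 1 or 3 or NT replicate 1 (0.67 to 1.06). *Tyms* was not called without NT replicate 2 or 3 (0.91 and 0.98). By edgeR and DESeq2 on the recovered reads *Cenpe* was not called, and in 1 fit over the 12 libraries of both types *Tyms* alone was. *Mki67*, a marker of dividing cells, was at 12006, 9831 and 11596 in FL and 3492, 9419 and 6628 in NT (0.88, SE 0.29, adjusted p = 0.037 from limma), and *Top2a* at 20972, 19925 and 22077 and 8930, 16594 and 11206 (0.82, SE 0.20). Both lay under 2-fold. *Mki67* was called without NT replicate 2 (1.21) and was at 0.49 without NT replicate 1, its lowest value in NT. *Top2a* was called without NT replicate 2 (1.07), and its lowest log2 difference over the alternatives was 0.62. Without NT replicate 2, 6 genes of the list were higher in FL, and without NT replicate 1 the count was 2. *E2f1*, a transcription factor of S phase entry, had the opposite sign, at -0.82 (SE 0.14), likewise under 2-fold.
None of 29 ribosomal protein genes was called, against 18.7% of all genes, with a median of 0.30 and values between -0.35 and 0.52. Without NT replicate 1 none was called and the median was 0.51. Their summed level was between 322520 and 377431 normalized reads in FL, 361461 in NT replicate 1, and 231218 and 283495 in NT replicates 2 and 3. At an unadjusted p under 0.05 from limma there were 7 of them, and the share of all genes at that mark is not given here. By edgeR and DESeq2 on the recovered reads 0 were called. Many ribosomal protein genes have pseudogenes whose reads cannot be told apart, so their values are uncertain. Of 14 immediate early genes, which respond to handling within minutes, 1 was called (7.14%, against 18.7% of all genes). This was *Nfkbiz*, higher in FL (2.12, SE 0.30). The summed level of the 14 was between 4498 and 7195 in FL, 14936 in NT replicate 1, and 6678 and 4316 in NT replicates 2 and 3. *Fos* was at 212.7, 255.5 and 799.9 in FL and 1626, 640.9 and 257.7 in NT (-0.87, SE 0.63, adjusted p = 0.32 from limma), and *Junb* at 67.8, 137.3 and 152.0 and 812.2, 163.6 and 175.1 (-1.34, SE 0.57, adjusted p = 0.098 from limma). The median of the list was -0.78 with all libraries and -0.16 without NT replicate 1. Higher in NT were 1 of the 14 without NT replicate 1 or FL replicate 3 and 2 without NT replicate 3.

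Ribo-Seq of the same tissues, which the mRNA calls do not use, counts ribosome-protected fragments (RPFs) on the same CDS and so reports ribosomes on an mRNA. Of all genes, 11.9% were called higher in FL and 13.5% higher in NT in RPFs by the same rule, 25.3% together. Of the 959 genes higher in FL in mRNA, 667 (69.6%) were also called higher in FL in RPFs. Of the 1143 genes higher in NT, 932 (81.5%) were called higher in NT in RPFs. None of the 2102 genes was called in opposite directions. The sign of the difference was the same in 95.4% and 98.3% of them. The cells of a dissection were divided between the library types, so both readouts share their source. The genes named here were not chosen independently of Ribo-Seq, since the symbols came from lists sorted by translation efficiency.
FL Ribo-Seq replicate 3 stood apart, with r of 0.886 and 0.896 with the other FL replicates and of up to 0.823 with NT replicates, where FL replicates 1 and 2 had at most 0.779. Without it, 65.9% and 81.5% of the genes higher in FL and NT in mRNA were called likewise in RPFs, and 13 and 1 were called in the opposite direction. Over all genes, RPF calls without it rose to 2375 in FL and 2639 in NT, from 1335 and 1511 with all libraries. The shares with and without it therefore stand against different backgrounds, and the share of genes higher in FL fell although more genes were called. NT Ribo-Seq replicate 3 also had the lowest r with its own group (0.933 and 0.934), and without it the shares were 65.5% and 76.1%, with 0 and 1 in the opposite direction. The log2 difference in RPFs was -6.57 for *Robo3*, -7.48 for *Ina* and 6.13 for *Hoxd13*, each called. Without FL Ribo-Seq replicate 3 *Robo3* was at -5.60 and called higher in NT, *Ina* at -7.44 and called higher in NT and *Hoxd13* at 6.38 and called higher in FL.
Some genes called in mRNA were not called in RPFs. *Evx2* had a log2 difference of 2.05 in mRNA and of 0.10 (SE 0.35, adjusted p = 0.84 from limma) in RPFs. *Cacna1a* was at -2.65 in mRNA and -0.03 (SE 0.46) in RPFs, *Vcan* at 2.26 and 0.44 (SE 0.48), and *Evc* at 1.34 and -0.05 (SE 0.42). *Ptch1* was not called in mRNA and was called higher in NT in RPFs (-2.02, SE 0.62, adjusted p = 0.043 from limma). Without FL Ribo-Seq replicate 3 the RPF difference of *Evx2* was -0.03 and not called, that of *Cacna1a* 0.53 and not called, that of *Vcan* -0.15 and not called, that of *Evc* -0.50 and not called and that of *Ptch1* -2.81 and called higher in NT. Whether mRNA and RPFs differed in these genes was not tested here. Of the lists, neural progenitor and neuronal genes had 20 members called higher in NT in RPFs against 23 in mRNA, and the extracellular matrix 11 higher in FL against 19. Without FL Ribo-Seq replicate 3 the counts in RPFs were 20 and 9.

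**Figure D5:**
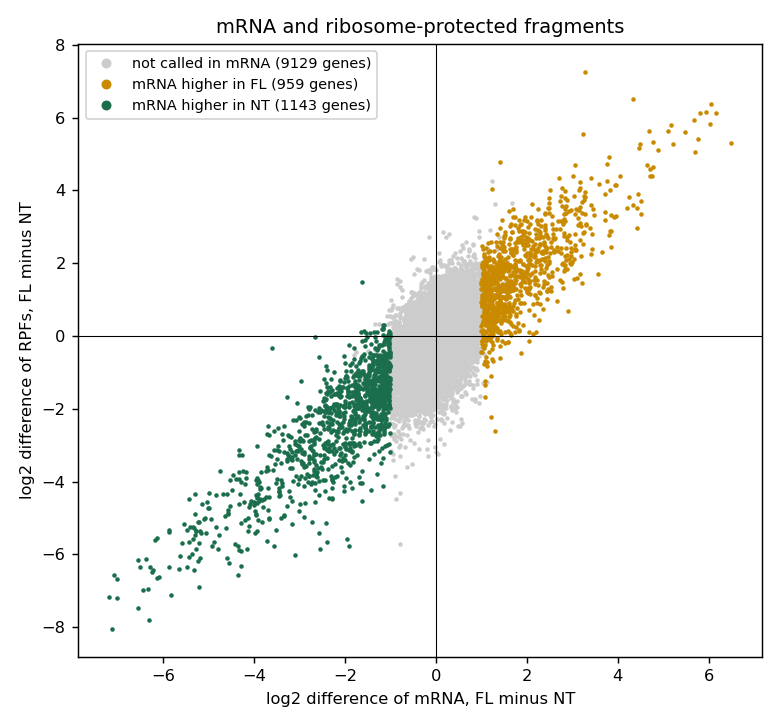
Log2 difference, FL minus NT, of mRNA (x) and of RPFs (y) for the 11231 genes, with the 959 genes higher in FL and the 1143 genes higher in NT in mRNA coloured. Of the coloured genes, 667 and 932 were called in the same direction in RPFs and none in the opposite one.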

How the data were processed

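RNA-Seq of FL and NT at E11.5 was analysed, 3 libraries per tissue, with Ribo-Seq of the same tissues as a second readout. Per the methods of the study, reads were trimmed with cutadapt and aligned to the canonical isoforms of UCSC known genes (mm10), uniquely aligned reads were counted over the CDS, leaving out its first 15 codons and its last 5, and counts were divided by size factors from DESeq. The submitters' processing notes also name Bowtie2. The authors deposited the resulting normalized reads, a coverage signal per gene in which whole reads could be recovered for 100% of the values (within 0.011 normalized reads). Columns of ratios between tissues or library types were not used.

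FL was compared with NT by limma (3.58.1, R 4.3.3) with a mean-variance trend on log2(normalized reads + 1), with Benjamini-Hochberg adjustment over 11231 genes. A difference on this scale understates the change of low genes. Calls needed an adjusted p below 0.05 together with a 2-fold difference. On simulated reads with 200 genes changed 4-fold, the RNA-Seq test recovered 100% of them and called 4 others, and the Ribo-Seq test recovered 77.5% and called 7 others, of 11231 genes. The simulated noise was independent between genes and held no library that stands apart, as NT replicate 1 does. These rates therefore need not hold for the data. Symbols were taken from the identifier pairs of the study's supplementary lists, which were sorted by translation efficiency and hold 3280 of the genes here, so that named genes are no random choice. Positions are those of GENCODE vM21 (GRCm38, the assembly of mm10) by symbol. CDS lengths come from the same annotation.

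Named are the 15 genes per direction with the largest difference among called genes with a symbol, a mean of at least 100 normalized reads and no overlap between the tissues, and genes of 21 lists. The comparison, the lists and the genes were chosen with earlier results of these data known. *Mt2*, *Klf4*, *Klf5*, *Epcam*, *Spry4*, *Etv4*, *Etv5*, *Mybl2*, *Epha2*, *Gria2* and *Vcan* were picked for display after their values were seen. Alternatives were edgeR (4.0.16) and DESeq2 (1.42.0) on the recovered reads, TMM or quantile scaling, other pseudocounts, a filter on low means, a replicate block, 1 fit over 12 libraries, other thresholds and leaving out each library. Some genes are not reported here.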

Additional observations from a re-analysis of the deposited data

How the results depend on the processing

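Of the mRNA calls, between 870 and 1064 genes were higher in FL and between 1084 and 1226 in NT when any 1 library was left out, and edgeR gave 897 and 1174, DESeq2 933 and 1177. Only dropping the fold threshold moved the counts by over 1.5 times, to 1836 and 2012. The 30 genes with the largest differences, chosen among called genes without overlap, were called under all 17 alternatives. Their choice from the same libraries made this likely beforehand, and the looser thresholds among the alternatives could not lose a call. Their stability is therefore no independent support. Of 150 called genes named here, 23 lost the call under 1 or more alternatives and 0 changed direction. Among genes not called, *Hoxd8* was at 0.01 under quantile normalization and between -0.22 and 0.14 with 1 library left out, and *Hoxa9* between -0.02 and 0.19. With 1 library left out, *Klf4* lay between -0.85 and 0.79, *Klf5* between -1.23 and 0.67, *Mt2* between -1.70 and 0.23, *Epha2* between -1.18 and 0.01 and *Mybl2* between -0.73 and 0.56, and each was positive without NT replicate 1. Quantile normalization moved the median of all genes from 0.023 to 0.070.

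The RPF counts, 1335 higher in FL and 1511 in NT, were less stable. With 1 Ribo-Seq library left out they ranged from 630 to 2375 and from 937 to 2639, both highest without FL replicate 3 and lowest without FL replicate 2 (FL) and NT replicate 2 (NT). The cause was not tested.

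Replicate numbers recur in FL and NT, but samples of the same number did not deviate together (r of -0.02, -0.22 and -0.24 in RNA-Seq, -0.29, -0.50 and -0.58 in Ribo-Seq). With a replicate block 980 and 1155 genes were called in mRNA, and 519 and 789 in RPFs, of which 446 and 699 were among those called in the same direction in mRNA. Each RNA-Seq library held at least 24555103 reads. Whether depth or the spread between 3 replicates limits the comparison was not tested.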

Other observations

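The share of genes called in mRNA lay between 13.9% and 20.9% in every band of level. Called were 73 of 525 genes (13.9%) with a mean under 100 normalized reads, 1137 of 5453 (20.9%) from 100 to 1000, 849 of 4954 (17.1%) from 1000 to 10000, and 43 of 299 (14.4%) above. In the highest band, 23 genes were higher in FL and 20 in NT.

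Ribosomal protein genes, none of which was called in mRNA, held 12 of 29 members called higher in FL and none in NT in RPFs, where 11.9% of all genes were higher in FL (median log2 difference of the list 1.23). Without FL Ribo-Seq replicate 3 the count was 27. Of the 50 cell cycle genes, 14 were called higher in FL and none in NT in RPFs (median -0.54), and 19 and 23 without FL Ribo-Seq replicate 3. The counts of both lists thus rose when that library was left out, but so did those of all genes. Over all genes, 1335 were called higher in FL and 1511 in NT in RPFs with all libraries, and 2375 and 2639 without it. The rise is therefore not particular to these lists, and the part of that library in their counts was not tested.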
